A study of Mus musculus with 18 samples.

Results

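The germ cells of the testis use their own copies of several enzymes of energy metabolism, and these copies were followed here beside the somatic copies of the same enzymes in mouse testis. The set comprised 10 genes chosen by name: the testis copies Pgk2, Ldhc, Gapdhs, Pdha2 and Gk2, and the somatic copies Pgk1, Ldha, Ldhb, Gapdh and Pdha1. All probes annotated to them were taken, 15 of the 45281 probes on the array. A filter on detection left 12 probes of 9 genes, out of 19076 probes and 10798 genes that passed it. The 3 probes that did not pass were the only Pdha2 probe and 2 of the 3 Pgk1 probes.

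Glycolysis splits glucose into pyruvate: glyceraldehyde 3-phosphate dehydrogenase (Gapdh, Gapdhs) and phosphoglycerate kinase (Pgk1, Pgk2) act in its later steps, and lactate dehydrogenase (Ldha, Ldhb, Ldhc) interconverts pyruvate and lactate. The pyruvate dehydrogenase subunit encoded by Pdha1 or Pdha2 leads pyruvate into the tricarboxylic acid cycle. Glycerol kinase leads glycerol into glycolysis. Gk2 is a testis copy of its gene, and whether the Gk2 product has that activity was not measured here. Pgk1 and Pdha1 are X-linked, and Pgk2 and Pdha2 are autosomal retrogenes known for their activity in germ cells, where the X chromosome is silenced during meiosis. In the mouse, Ldhc is known to be active from spermatocytes on and Gapdhs in haploid spermatids, and Gapdhs protein is bound to the fibrous sheath of the sperm tail.

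Total RNA of whole testis was hybridised to Illumina bead arrays, and the title of the series names the question as which transcripts depend on follicle stimulating hormone and luteinizing hormone and how these pathways interact. All animals were 12 weeks old and of a FVB/N x C57/BL6 cross. There were 4 wild type arrays, 4 Fshr mutant arrays, 5 Lhr null arrays and 5 arrays labelled Fshr mutant/Lhr null, called double mutant here. Fshr is the receptor for follicle stimulating hormone on Sertoli cells and Lhr the receptor for luteinizing hormone on Leydig cells. In the column headers the mutant allele is Fshr-CAM; its promoter and its effect are stated in no label. The labels do not tie arrays to individual animals. The spread behind each p-value is thus that between these samples and may be technical.

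Between 15482 and 18950 probes were detected per array, and correlations between arrays ran from 0.837 to 0.989. On the probe ILMN_1228881 the Fshr level was 5.17 to 5.88 in wild type and 8.47 to 8.77 in Fshr mutant. It was 8.48 to 9.27 on 4 double mutant arrays, but 5.71 on replicate 2 of the arrays labelled Fshr mutant/Lhr null, which lay within the wild type range. On the same probe Lhr null arrays read 7.60 to 8.37. The other Fshr probe past the filter, ILMN_2932141, did not set the groups or that array apart in this way: it read 5.72 to 6.39 in wild type, 5.39 to 5.94 in Fshr mutant and 7.92 to 8.52 in Lhr null, and the array's 5.68 lay among the 5.45 to 6.27 of the other double mutants. The Fshr probe ILMN_2736929 was detected on 0 of 18 arrays. The array is called the doubted array below, and the double mutant differences of the members' brightest probes are also given without it. The Lhr null label could not be set against Lhcgr, for which no probe is named here. Leydig cell markers also differed on that array: the mean log2 level of 5 markers was 8.97 there and 7.10 to 7.38 on the other 4 double mutant arrays, against 9.07 to 9.85 in wild type and 6.50 to 6.70 in Lhr null. The median of all genes was higher by 0.21 (log2) in Lhr null than in wild type after quantile normalization. After cyclic loess it was higher by 0.02. The tests of members below are against 0 and not against that shift. Small differences, such as 0.24 for Pdha1 and 0.28 for Ldhc between Lhr null and wild type, lie near it.

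The sequences below are the 250 bases before the transcription start of 4 members, from RefSeq on GRCm38.p6. They are shown because Gapdhs and Pgk2 are the testis copies with the largest differences between genotypes and the lactate dehydrogenase pair Ldhc and Ldha is the contrasting case of a testis and a somatic copy without a called difference. Capitals mark matches, on either strand, to the cAMP response element TGACGTCA, its short form TGACG, the GC box GGGCGG, the CCAAT box CCAAT and the TATA box TATAAA. The short form overlaps the whole element wherever the whole element occurs. Gapdhs, Ldhc and Ldha each have 2 listed starts. The most upstream one was used, and their matches hold for that start only.
Gapdhs: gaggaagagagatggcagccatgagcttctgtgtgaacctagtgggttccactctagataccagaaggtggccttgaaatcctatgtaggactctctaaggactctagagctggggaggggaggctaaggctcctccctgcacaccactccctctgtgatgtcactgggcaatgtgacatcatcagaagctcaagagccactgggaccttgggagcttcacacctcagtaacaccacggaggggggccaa
Pgk2: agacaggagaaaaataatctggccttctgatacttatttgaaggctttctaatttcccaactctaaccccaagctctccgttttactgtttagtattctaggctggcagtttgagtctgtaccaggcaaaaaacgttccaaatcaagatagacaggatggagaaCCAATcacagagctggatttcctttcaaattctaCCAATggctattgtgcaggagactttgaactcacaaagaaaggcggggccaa
Ldhc: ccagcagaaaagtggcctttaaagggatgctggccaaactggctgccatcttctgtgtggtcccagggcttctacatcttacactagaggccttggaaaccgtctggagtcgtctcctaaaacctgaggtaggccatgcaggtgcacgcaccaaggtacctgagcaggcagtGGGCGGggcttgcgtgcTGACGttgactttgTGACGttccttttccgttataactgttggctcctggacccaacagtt
Ldha: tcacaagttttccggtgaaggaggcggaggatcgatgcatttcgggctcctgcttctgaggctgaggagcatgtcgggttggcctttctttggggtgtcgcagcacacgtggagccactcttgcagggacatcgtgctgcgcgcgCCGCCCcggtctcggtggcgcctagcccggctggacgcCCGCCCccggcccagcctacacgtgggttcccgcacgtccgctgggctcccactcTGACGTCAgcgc

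The Gapdhs window lies at chr7:30743682-30743931 on the minus strand and held none of the 5 motifs. Pgk2, at chr17:40208610-40208859 on the minus strand, held 2 CCAAT boxes, which begin 86 and 52 bases before the start. Ldhc, at chr7:46861013-46861262 on the plus strand, held 2 short forms, 61 and 47 bases before the start, and a GC box at 78 bases. Ldha, on the same strand at chr7:46845554-46845803, held the whole cAMP response element 12 bases before the start and 2 GC boxes. Among 32851 promoter windows of the same length, 1.55% held the whole element, 17.8% the short form, 32.7% the GC box, 33.8% the CCAAT box and 12.4% the TATA box. The guanine and cytosine content was 54.8% for Gapdhs, 42.0% for Pgk2, 54.4% for Ldhc and 67.2% for Ldha. A match is a description of the letters and not a site.

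In Lhr null testis 3 testis copies were lower and 1 somatic copy higher than in wild type. Of the 9 genes tested, Gapdhs, Pgk2 and Gk2 were lower than in wild type and Gapdh was higher, while Ldhc, Pgk1, Ldha, Ldhb and Pdha1 did not pass the test (limma, Benjamini-Hochberg adjusted p under 0.05 over all 10798 genes). These 4 of 9 calls stand against 71.2% of all genes called in this comparison, 44.2% higher and 27.0% lower. By probes, 5 of 12 were called, against 68.8% of all probes. The 2 groups did not overlap for Gapdhs, Pgk2 and Gapdh, 3 of 9 genes, against 57.2% of all genes. The median difference of the 4 testis copies tested was -0.94 and that of the 5 somatic copies 0.24, against 0.21 over all genes. Testis is a mixture of cells, and in such bulk samples fewer cells of a type and less RNA per cell cannot be told apart.

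**Figure D1:**
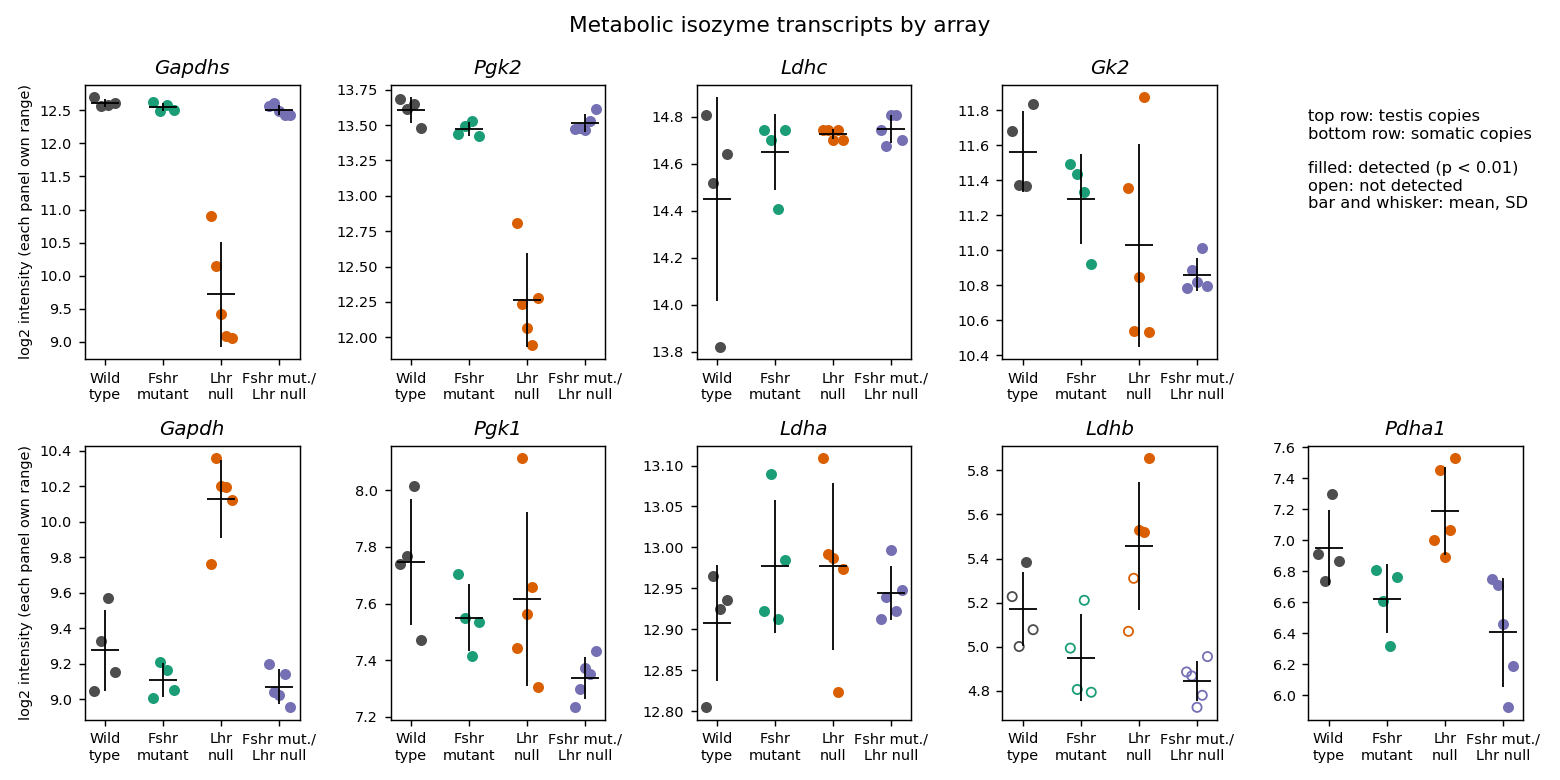
Log2 intensity (y axis, own range in each panel) of the brightest probe of 9 genes on each array, for the 4 genotype groups (x axis), with bars for the mean and whiskers for the SD. Lhr null arrays lie below all others for Gapdhs and Pgk2 and above all others for Gapdh, while Ldhc and Ldha overlap in all groups.

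Gapdhs, the sperm form of glyceraldehyde 3-phosphate dehydrogenase, showed the largest difference among the members. Its log2 level on probe ILMN_1244385 was 12.70, 12.56, 12.59 and 12.61 on the wild type arrays. On the Lhr null arrays it was 10.91, 10.14, 9.43, 9.08 and 9.06. All Lhr null arrays thus lay below all wild type arrays, and they spread over more than 1 log2 unit where the other groups spread over less. The mean fell by 2.89 ± 0.26 (SE, limma adjusted p = 4.53e-08, n = 5 against 4), which is 7.43-fold lower on the intensity scale. The second probe, ILMN_2611234, read 12.29, 12.31, 12.54 and 12.08 in wild type and 10.31, 9.65, 8.78, 8.40 and 8.31 in Lhr null, 9.29-fold lower (log2 -3.22 ± 0.29, SE, limma adjusted p = 3.89e-08). Both probes gave the same direction and the same order of the 5 Lhr null arrays. Before any normalization the intensity of ILMN_1244385 was 5065 to 10245 in wild type and 579 to 1757 in Lhr null, without overlap.

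Pgk2, the retrogene copy of phosphoglycerate kinase, was also lower in Lhr null, by less than Gapdhs. On ILMN_2766484 the wild type arrays read 13.68, 13.62, 13.65 and 13.48. The Lhr null arrays read 12.81, 12.23, 12.07, 11.94 and 12.28. No array of one group reached the range of the other. The difference was -1.34 ± 0.13 (SE, limma adjusted p = 6.72e-08), 2.53-fold lower.

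Gk2, a testis copy of the glycerol kinase gene, differed less and less evenly. Wild type arrays read 11.68, 11.37, 11.37 and 11.83, and Lhr null arrays 11.35, 10.54, 10.84, 11.87 and 10.53. Replicate 4 of Lhr null was the highest of all 9 arrays, and the groups overlapped. The difference of -0.54 ± 0.22 (SE, limma adjusted p = 0.0359) passed the threshold narrowly. It did not pass without wild type replicate 1 (adjusted p = 0.0813), wild type replicate 4 (adjusted p = 0.108), or Lhr null replicate 2 (adjusted p = 0.101), replicate 3 (adjusted p = 0.0734) or replicate 5 (adjusted p = 0.0998), all by limma. The size moved with the scaling: the Gk2 difference was -0.74 under cyclic loess (adjusted p = 0.00341), -0.94 under median scaling (adjusted p = 0.00345) and -0.96 without normalization (adjusted p = 0.00568), each by limma over all probes.

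Ldhc, the testis form of lactate dehydrogenase, was not called on any of its 3 probes. On the brightest, ILMN_2930177, wild type arrays read 14.81, 14.52, 13.82 and 14.64. Lhr null arrays read 14.74, 14.74, 14.70, 14.74 and 14.70, inside the wild type range. The difference was 0.28 ± 0.14 (SE, limma adjusted p = 0.0892), and it was -0.17 ± 0.10 (SE) on ILMN_2665749 and 0.11 ± 0.11 (SE) on ILMN_1248952. The wild type SD of 0.43 came mainly from replicate 3, and without wild type replicate 1 the difference on the brightest probe was 0.40 (limma adjusted p = 0.0195).

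The Ldhc probes lie at the top of the intensity range, which limits what can be read from them. ILMN_2930177 ranked between 1 and 49 from the brightest probe on each array, at 74.1% to 100% of the array's maximum, and quantile normalization left it only 8 distinct values on 18 arrays. Under cyclic loess normalization its difference between Lhr null and wild type was 0.83 ± 0.16 (SE, limma adjusted p = 2.18e-04 over genes). The other probes then gave 0.35 ± 0.12 and 0.35 ± 0.10 (SE) and were called higher as well. Whether Ldhc differs between these groups thus changed with the scaling. Under no scaling tried was a Ldhc probe called lower in Lhr null.

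Pdha2, the testis form of the pyruvate dehydrogenase subunit, gave no measurement. Its only probe, ILMN_2667428, read 4.27 to 4.63 on the 18 arrays and was detected on 0 of them at a detection p under 0.01. The label of Pdha2 as a testis copy therefore had no signal in testis at this probe, and no change can be read from it.

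Gapdh, the somatic glyceraldehyde 3-phosphate dehydrogenase that is often used as a reference transcript, went the other way from Gapdhs. Wild type arrays read 9.05, 9.33, 9.57 and 9.16 on ILMN_1377924, and Lhr null arrays 9.76, 10.36, 10.20, 10.20 and 10.12. The groups did not overlap. The difference was 0.85 ± 0.12 (SE, limma adjusted p = 5.04e-06), 1.81-fold higher, and it stayed above 0 and called under each scaling tried, with 0.61 the smallest value. The 4 other somatic copies were not called. Ldha, the main lactate dehydrogenase subunit of muscle, read 12.80, 12.97, 12.92 and 12.94 in wild type and 13.11, 12.99, 12.99, 12.82 and 12.97 in Lhr null (0.07 ± 0.08, SE, limma adjusted p = 0.422). Under median scaling and without normalization the Ldha difference was called with the opposite sign, at -0.43 and -0.45.

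Pgk1, the X-linked phosphoglycerate kinase, was detected on every array by 1 probe, ILMN_2651886, at 7.74, 7.77, 8.01 and 7.47 in wild type and 7.44, 8.11, 7.56, 7.66 and 7.31 in Lhr null. These groups overlapped fully (-0.13 ± 0.14, SE, limma adjusted p = 0.402), and under cyclic loess the difference was -0.38 (limma adjusted p = 0.0175). The Pgk1 probes ILMN_1226872 and ILMN_2797973 were detected on 0 of 18 arrays. Pdha1, the X-linked pyruvate dehydrogenase subunit, read 6.91, 6.73, 7.30 and 6.87 in wild type and 7.00, 7.45, 6.89, 7.07 and 7.53 in Lhr null (0.24 ± 0.18, SE, limma adjusted p = 0.252). Ldhb, the main lactate dehydrogenase subunit of heart, was near background: its probe was detected on 1 of 4 wild type arrays, 0 of 4 Fshr mutant arrays, 3 of 5 Lhr null arrays and 0 of 5 double mutant arrays. Its difference between Lhr null and wild type was 0.29 ± 0.13 (SE, limma adjusted p = 0.0666), and without Lhr null replicate 1 it was 0.38 (limma adjusted p = 0.0105). Ldhb passed the detection filter mainly through Lhr null, the group where it is high, so neither value is support for a difference.

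**Figure D2:**
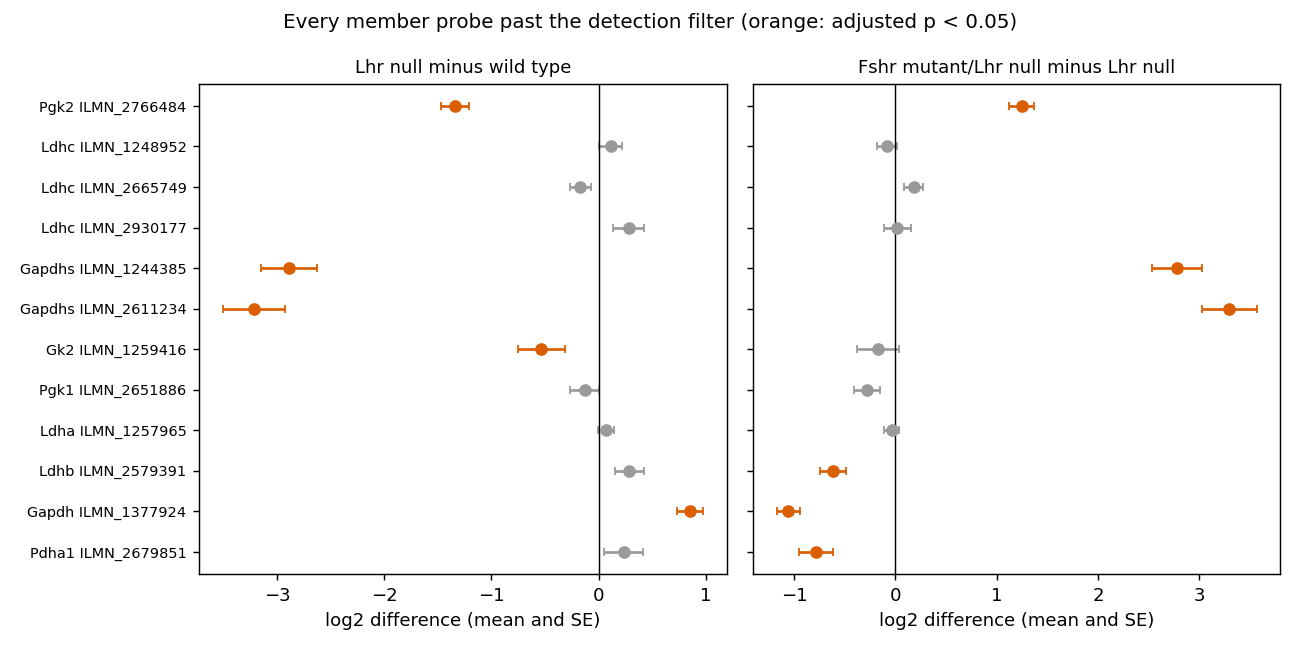
Log2 difference with its SE (x axis) for each of the 12 member probes past the detection filter (y axis), Lhr null minus wild type on the left and double mutant minus Lhr null on the right, with called probes in orange. The Gapdhs probes lie at -2.89 and -3.22 on the left and at 2.78 and 3.29 on the right. The Lhr null arrays enter both panels.

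In the double mutant the levels of Gapdhs, Pgk2 and Gapdh overlapped wild type and differed from Lhr null. Against Lhr null, Gapdhs and Pgk2 were higher and Ldhb, Gapdh and Pdha1 lower, 5 of 9 genes, while the share among all genes was 74.2%, made up of 29.3% higher and 45.0% lower. By probes, 6 of 12 were called, against 72.6% of all probes. Ldhb passed the detection filter on 4 of 18 arrays, 3 of them Lhr null, the group where it is high, so its call is not support for a difference. The 2 groups did not overlap for these 5 genes, against 58.1% of all genes. The Lhr null arrays are the same as in the comparison above, so the 2 sets of differences are not independent. Each call below also passed when the doubted array was left out.

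Gapdhs read 12.57, 12.60, 12.49, 12.43 and 12.43 on the double mutant arrays by ILMN_1244385, all above the highest Lhr null array. It was higher than in Lhr null by 2.78 ± 0.25 (SE, limma adjusted p = 2.75e-08), or 6.89-fold, and by 2.75 without the doubted array. By ILMN_2611234 the double mutant arrays read 12.37, 12.51, 12.40, 12.32 and 12.32, 9.81-fold above Lhr null. Against wild type the double mutant differed by -0.11 ± 0.26 (SE, limma adjusted p = 0.880), and by -0.13 without the doubted array. On 5 arrays per group the spread of Gapdhs was 0.08 (SD) in the double mutant and 0.79 (SD) in Lhr null.

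Pgk2 read 13.47, 13.48, 13.46, 13.53 and 13.62 on the double mutant arrays. These lay above every Lhr null array and overlapped wild type. The difference from Lhr null was 1.25 ± 0.12 (SE, limma adjusted p = 5.64e-08), 2.37-fold higher, and 1.26 without the doubted array. The difference from wild type was -0.09 ± 0.13 (SE, limma adjusted p = 0.753), and -0.09 without the doubted array.

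Gapdh moved down against Lhr null, to 9.20, 9.04, 9.02, 9.14 and 8.96. All 5 values lay below the lowest Lhr null array and overlapped wild type. The difference from Lhr null was -1.06 ± 0.11 (SE, limma adjusted p = 1.83e-07), 2.08-fold lower, and -1.05 without the doubted array. Pdha1 read 6.75, 6.71, 6.46, 5.92 and 6.19 and differed from Lhr null by -0.78 ± 0.17 (SE, limma adjusted p = 4.67e-04), 1.72-fold lower, and by -0.86 without the doubted array. Its difference from wild type was -0.55 ± 0.18 (SE, limma adjusted p = 0.145), which was not called, and -0.62 (limma adjusted p = 0.114) without the doubted array. Ldhb was detected on 0 of 5 double mutant arrays, so its level there is only a bound and neither a difference nor a fold is given. The measured means were 4.84 in the double mutant and 5.46 in Lhr null, with a limma adjusted p of 2.86e-04, and of 7.10e-04 without the doubted array.

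Ldhc on its brightest probe read 14.74, 14.68, 14.81, 14.81 and 14.70 in the double mutant, a range that contained the Lhr null values. The difference from Lhr null was 0.02 ± 0.13 (SE, limma adjusted p = 0.893), and 0.04 without the doubted array. Under cyclic loess it was -0.50 (limma adjusted p = 0.00697), so its direction changed with the scaling. After quantile normalization ILMN_2665749 was 0.18 ± 0.09 (SE, limma adjusted p = 0.0825) higher in the double mutant, and its groups did not overlap. The third probe, ILMN_1248952, gave -0.08 ± 0.10 (SE), and neither was called. Ldha, at 12.91, 12.94, 13.00, 12.92 and 12.95, differed from Lhr null by -0.03 ± 0.07 (SE, limma adjusted p = 0.684), and by -0.03 without the doubted array. Pgk1 read 7.23, 7.30, 7.37, 7.35 and 7.43 and differed by -0.28 ± 0.13 (SE, limma adjusted p = 0.0575), and by -0.27 without the doubted array (limma adjusted p = 0.0934). That Pgk1 difference was called without wild type replicate 3 (-0.28, adjusted p = 0.0493), wild type replicate 4 (-0.28, adjusted p = 0.0491), Lhr null replicate 1 (-0.32, adjusted p = 0.0386) or Lhr null replicate 5 (-0.36, adjusted p = 0.0186), and with array weights (-0.30, adjusted p = 0.0445), all by limma. Scaling moved it more: it was -0.06 under cyclic loess and not called (adjusted p = 0.664 over probes), and it was called at -0.52 under median scaling (adjusted p = 0.00970) and at -0.64 without normalization (adjusted p = 0.0124), all by limma.

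Gk2 gave no called difference between double mutant and Lhr null. The double mutant arrays read 10.78, 10.89, 10.82, 11.01 and 10.80, and every one lay below the lowest wild type array. Against Lhr null the difference was -0.17 ± 0.21 (SE, limma adjusted p = 0.467), and -0.18 without the doubted array. Against wild type it was -0.70 ± 0.22 (SE, limma adjusted p = 0.123), and -0.71 (adjusted p = 0.158) without the doubted array. Without Lhr null replicate 4, which enters only through the shared spread, normalization and filter, the same difference was -0.71 and was called (limma adjusted p = 0.0375). It was also called without normalization (-1.07, adjusted p = 0.0474), with only the groups compared (-0.70, adjusted p = 0.0293) and with array weights (-0.80, adjusted p = 0.00961), all by limma. With the settings used throughout, no member was called between double mutant and wild type, where 1.28% of all genes and 0.834% of all probes were called, or between double mutant and Fshr mutant, where 0.0278% of genes were. These shares are 138 and 3 genes, and without the doubted array 182 and 57 genes were called, none of them a member. Members whose groups did not overlap between double mutant and wild type were Gk2, Pgk1 and Ldhb, the last of them not above background in the double mutant, 3 of 9 against 8.44% of all genes.

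No member was called between Fshr mutant and wild type, the comparison of the Fshr mutation alone. Fshr mutant arrays read 12.62, 12.49, 12.58 and 12.51 for Gapdhs, 13.44, 13.49, 13.53 and 13.42 for Pgk2, and 9.01, 9.21, 9.17 and 9.05 for Gapdh. Each set overlapped wild type, as did those of all 9 genes, while the groups did not overlap for 3.48% of all genes. The differences of the 9 genes from wild type ran from -0.33 ± 0.19 (SE) for Pdha1 to 0.20 ± 0.15 (SE) for Ldhc, and none was called by limma. The percentage of all genes called was 0, while 4.05% had an unadjusted p under 0.05, and a missed threshold does not show equal levels. Fshr itself was not called, though on ILMN_1228881 it read 8.47 to 8.77 in Fshr mutant and 5.17 to 5.88 in wild type. The doubted array enters the spread shared by all groups. Without it 3 genes were called, none of them a member. Gk2 read 11.49, 11.43, 11.33 and 10.92 there (-0.27 ± 0.23, SE).

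The effect of the Fshr mutation differed with the state of Lhr for Gapdhs, Pgk2 and Gapdh, 3 of 9 genes, against 60.1% of all genes called for the interaction. This test subtracts the difference between Fshr mutant and wild type from the difference between double mutant and Lhr null. It gave 2.85 ± 0.37 for Gapdhs (SE, limma adjusted p = 8.87e-06) and 1.38 ± 0.18 for Pgk2 (SE, limma adjusted p = 8.41e-06). For Gapdh it gave -0.89 ± 0.17 (SE, limma adjusted p = 2.33e-04). Without the doubted array the values were 2.82, 1.39 and -0.88. The median over all genes was -0.22.

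The balance of a testis copy against its somatic copy can be followed on each array as the log2 ratio of their probes, in which a common scaling factor of the array cancels. Only the change of the ratio between groups is read, since 2 probes do not share a scale. Each change was tested with an exact two-sided permutation test over arrays, adjusted over 12 tests, and the smallest p possible was 0.0159 for 5 against 4 arrays and 0.00794 for 5 against 5.

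Gapdhs minus Gapdh was 3.65, 3.23, 3.02 and 3.46 in wild type and 1.15, -0.22, -0.78, -1.12 and -1.07 in Lhr null. It was 3.37, 3.56, 3.47, 3.29 and 3.48 in the double mutant. The Lhr null arrays stood below all others. The ratio differed by -3.75 ± 0.44 (SE) between Lhr null and wild type and by 3.84 ± 0.42 (SE) between double mutant and Lhr null (adjusted p = 0.0272 for both, exact permutation test). Between double mutant and wild type it differed by 0.09 ± 0.14 (SE, adjusted p = 0.571, exact permutation test). Without the doubted array the 2 double mutant values were 3.80 and 0.06.

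Pgk2 minus Pgk1 was 5.94, 5.85, 5.64 and 6.01 in wild type, 5.36, 4.12, 4.50, 4.28 and 4.97 in Lhr null and 6.24, 6.18, 6.09, 6.18 and 6.18 in the double mutant. No 2 of these groups overlapped. The changes were -1.21 ± 0.24 (SE) from wild type to Lhr null, 1.53 ± 0.23 (SE) from Lhr null to double mutant and 0.32 ± 0.08 (SE) from wild type to double mutant (adjusted p = 0.0272 for each, exact permutation test). The last of these was 0.20 with the authors' processed values, with an adjusted p of 0.0544. Without the doubted array the last 2 changes were 1.52 and 0.31.

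Ldhc minus Ldha did not pass in any comparison. It was 2.01, 1.55, 0.90 and 1.71 in wild type and 1.64, 1.75, 1.72, 1.92 and 1.73 in Lhr null, which overlap (0.21 ± 0.24, SE, adjusted p = 0.533, exact permutation test). Between double mutant and Lhr null the change was 0.05 ± 0.05 (SE, adjusted p = 0.455, exact permutation test), or 0.07 without the doubted array, and without Lhr null replicate 4 it was 0.10 (adjusted p = 0.0476, exact permutation test). Between double mutant and wild type it was 0.26 ± 0.24 (SE, adjusted p = 0.405, exact permutation test), or 0.28 without the doubted array. Under cyclic loess the change was 0.82 between Lhr null and wild type and -0.47 between double mutant and Lhr null, both called. Ldhc minus Ldhb changed by -0.01 ± 0.31 (SE, adjusted p = 1, exact permutation test) between Lhr null and wild type. It changed by 0.64 ± 0.15 and 0.63 ± 0.29 (SE, adjusted p = 0.0272 for both, exact permutation test) from Lhr null and from wild type to the double mutant, and by 0.66 and 0.65 without the doubted array. Ldhb was not above background in the double mutant, so these 2 changes have no measured denominator.

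**Figure D3:**
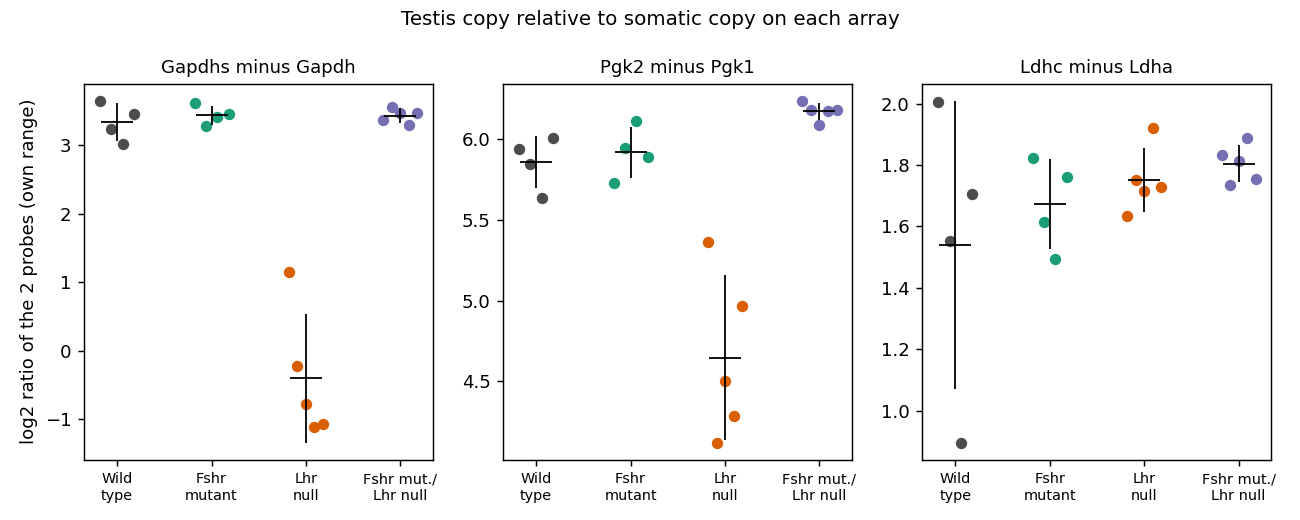
Log2 ratio of a testis copy to its somatic copy (y axis, own range in each panel) on each array of the 4 groups (x axis), with bars for the mean and whiskers for the SD. Gapdhs minus Gapdh is 1.15 or lower on the Lhr null arrays and 3.02 or higher in wild type, while Ldhc minus Ldha overlaps between groups.

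The 5 Lhr null arrays differed among themselves, and their levels of Gapdhs and Pgk2 can be set beside markers of germ cell stages. Gapdhs was highest on replicate 1, at 10.91, and next on replicate 2, at 10.14. The mean log2 level of 9 elongating spermatid markers on the same 5 arrays was 11.77, 10.93, 10.36, 9.85 and 9.83, and thus ran in the order of Gapdhs. That of 8 round spermatid markers ran from 9.84 on replicate 4 to 10.78 on replicate 1, against 11.28 to 11.51 in wild type. Pgk2, at 12.81, was highest on replicate 1 as well, and lowest on replicate 4, as were the round spermatid markers. Gk2 had another order, with its highest value of 11.87 on replicate 4. The 5 arrays are too few for a correlation, and the part of the spermatid markers in these results was not tested.

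**Figure D4:**
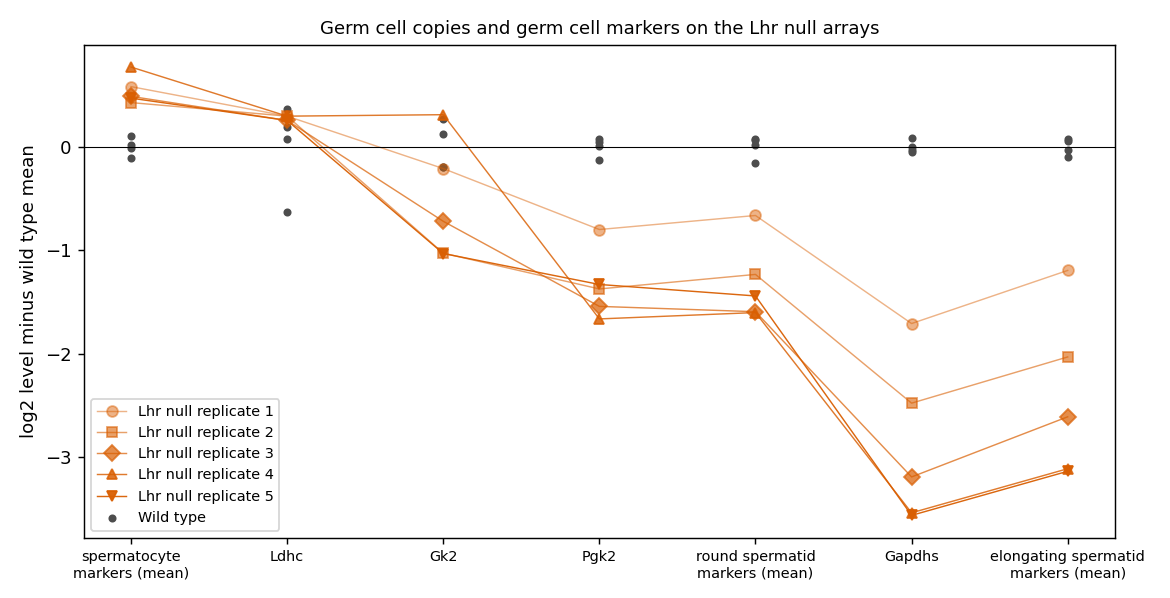
Log2 level minus the wild type mean (y axis) of 4 testis copies and 3 germ cell marker lists (x axis), with 1 line per Lhr null array and dots for the wild type arrays. Replicate 1 lies nearest to wild type for Gapdhs, Pgk2 and both spermatid lists, and replicate 4 is above the wild type mean for Gk2.

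Marker lists of the other cell types moved with the same groups. Over all genes 44.2% were called higher and 27.0% lower in Lhr null than in wild type. All 9 elongating spermatid markers tested, out of 10 listed, were lower in Lhr null than in wild type, with a median of -2.25; their summed intensity was 24107 to 66789 in Lhr null and 105370 to 118906 in wild type. Tssk6, a spermatid kinase, fell by 4.09 ± 0.44 and Fscn3, a spermatid actin-bundling protein, by 3.82 ± 0.36 (SE); Fscn3 was detected on 3 of 5 Lhr null arrays. All 8 round spermatid markers were lower too (median -1.22), with a summed intensity of 9436 to 16458 in Lhr null and 22139 to 26546 in wild type. Theg fell by 2.23 ± 0.18 and Tex29 by 1.74 ± 0.23 (SE).

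More markers of spermatogonia, spermatocytes and Sertoli cells were higher than lower in Lhr null, while the Leydig markers tested were all lower. More genes were higher than lower over all genes as well, 44.2% against 27.0%. The count of spermatocyte markers called higher lies near that share. Of 8 spermatocyte markers tested, 4 were higher and 1 lower in Lhr null, with a summed intensity of 20509 to 22727 against 14114 to 15090 in wild type. Tex101 was higher by 1.79 ± 0.12 and Meiob, a meiotic recombination protein, by 1.46 ± 0.13 (SE). Of 6 spermatogonia markers 5 were higher, with sums of 3917 to 5614 against 1846 to 2092, led by Dazl (1.60 ± 0.13, SE). Stra8, detected on 4 Lhr null and no wild type arrays, read at least 1.26-fold higher. The filter asked for detection on 4 arrays, so Stra8 could pass it through Lhr null alone. Its call is therefore not support for a difference. Of 8 Sertoli markers 7 were higher and 1 lower, with sums of 23936 to 31623 against 11434 to 13057. Shbg was higher by 2.28 ± 0.15, and Rhox5, a homeobox gene that responds to androgen in Sertoli cells, fell by 2.20 ± 0.18 (SE). All 5 Leydig markers tested were lower, with sums of 966 to 1904 against 13549 to 19034, among them the steroid enzyme Cyp17a1, which fell by 4.40 ± 0.37 (SE), and the hormone Insl3, which fell by 3.59 ± 0.31 (SE). Of 3 smooth muscle genes tested, out of 5 listed, Acta2 (1.25 ± 0.12, SE) and Myh11 (1.04 ± 0.15, SE) were higher. Of 4 macrophage markers 1 was called lower, Aif1 (-2.29 ± 0.24, SE), and 3 were without the doubted array. The macrophage sums were 627 to 1889 in Lhr null and 3817 to 4390 in wild type, without overlap. Of 4 red blood cell markers 1 was lower, Alas2 (-2.53 ± 0.20, SE), and their sums overlapped, at 1020 to 2199 against 1180 to 3884. The part of these cell types in the results on the isozymes was not tested.

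In the double mutant all 8 round and all 9 elongating spermatid markers were higher than in Lhr null, with or without the doubted array. Their sums were 24840 to 27544 and 108904 to 114313 (24840 to 27544 and 108904 to 113178 without the doubted array), which overlap the wild type ranges. Of 8 Sertoli markers 7 were lower and 1 higher than in Lhr null. Over all genes 29.3% were called higher and 45.0% lower in that comparison, and 1.28% were called between double mutant and wild type. All 5 Leydig markers were called lower than in wild type and 2 of 5 higher than in Lhr null, with the same counts without the doubted array. Their sum was 11040 on the doubted array and 3276 to 4481 on the other 4.

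The other enzymes of glycolysis split into both directions in Lhr null, with 4 higher and 8 lower of 15 tested and a median of -0.31. The shares of all genes were 44.2% higher and 27.0% lower. Against Lhr null the double mutant had 8 higher and 4 lower, and 8 higher and 5 lower without the doubted array. With all arrays 29.3% of all genes were called higher there and 45.0% lower. Hk1, the hexokinase of the first step, which has sperm-specific transcripts in the mouse, was 9.46 to 9.97 in wild type and 6.19 to 7.76 in Lhr null, and fell by 2.97 ± 0.21 (SE, limma adjusted p = 5.23e-09). It stood 2.72 ± 0.20 (SE) higher in the double mutant than in Lhr null, and as much, 2.72, without the doubted array. Tpi1, triose phosphate isomerase, fell by 0.94 ± 0.11 and was 0.90 ± 0.10 (SE) higher in the double mutant than in Lhr null, or 0.89 without the doubted array. Adpgk, an ADP-dependent glucokinase, was higher by 0.74 ± 0.17 (SE) in Lhr null and the double mutant differed from Lhr null by -0.64 ± 0.16 (SE), or -0.69 without the doubted array.

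Aldoc, aldolase C, fell by 0.79 ± 0.24 (SE, limma adjusted p = 0.00749) in Lhr null and stayed low in the double mutant. Against wild type the double mutant differed by -1.15 ± 0.24 (SE, limma adjusted p = 0.0288), the only gene of the 7 pathway lists called there (without the doubted array Idh2 of the tricarboxylic acid cycle was called as well). Against Lhr null the difference was -0.36 ± 0.23 (SE, limma adjusted p = 0.162). Its double mutant levels ran from 5.64 to 7.12, wider than in the other groups, and without the doubted array the differences were -1.44 ± 0.14 (SE, limma adjusted p = 2.85e-05) from wild type and -0.65 ± 0.14 (SE, limma adjusted p = 4.41e-04) from Lhr null.

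Genes of pyruvate entry were called in both directions, in counts near the shares of all genes. Of 9 genes of pyruvate entry 5 were higher and 2 lower in Lhr null, with a median of 0.39. Among all genes 44.2% were higher and 27.0% lower. The kinases that switch off pyruvate dehydrogenase divided: Pdk2 fell by 1.10 ± 0.12 and Pdk3 by 0.95 ± 0.10 (SE), while Pdk1 was higher by 0.75 ± 0.13 (SE). Pdp2, a phosphatase that switches the enzyme on, was higher by 0.99 ± 0.14 (SE). The double mutant differed from Lhr null in the opposite direction, by 1.22 for Pdk2, 0.78 for Pdk3, -0.86 for Pdk1 and -1.08 for Pdp2, all called. Without the doubted array these were 1.20, 0.79, -0.83 and -1.13, all called. On all arrays 29.3% of all genes were called higher than in Lhr null and 45.0% lower.

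Beside Gk2, the genes of glycerol and glycerol phosphate were 0 higher and 3 lower of 5 tested, against 44.2% and 27.0% of all genes. Gpd2, the mitochondrial glycerol phosphate dehydrogenase, was 13.18 to 13.39 in wild type and 10.17 to 12.17 in Lhr null and fell by 2.26 ± 0.26 (SE). Aqp7, a glycerol channel of spermatids, fell by 1.76 ± 0.25, and Pgp, a glycerol phosphate phosphatase, by 0.26 ± 0.10 (SE). In the double mutant they stood 2.19, 1.77 and 0.28 higher than in Lhr null (2.18, 1.75 and 0.33 without the doubted array), all called, where Gk2 was not. On all arrays 29.3% of all genes were called higher in that comparison. Gk has no named probe here.

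Of 5 transport genes tested 2 were higher and 2 lower in Lhr null, where 44.2% of all genes were higher and 27.0% lower. The glucose transporters Slc2a1 and Slc2a3 were higher, by 0.60 ± 0.13 and 0.32 ± 0.10 (SE). Slc2a8 fell by 0.54 ± 0.13 and the fructose transporter Slc2a5 by 0.86 ± 0.32 (SE), the latter detected on 2 of 5 Lhr null arrays. Among 6 other testis forms tested, 3 were higher and 1 lower, near those shares. Eno4, an enolase of the sperm tail, fell by 0.53 ± 0.12 (SE), while Mdh1b (0.31 ± 0.07), Cox6b2 (0.31 ± 0.10) and Cox8c (0.28 ± 0.10, SE) were higher.

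The tricarboxylic acid cycle and the pentose phosphate pathway had no lower call in Lhr null, where 27.0% of all genes were called lower. Of 14 genes of the cycle 8 were higher, with a median of 0.49. Of 5 genes of the pentose phosphate pathway 3 were higher, with a median of 0.76. These counts stand against 44.2% of all genes called higher. Sdhc, a succinate dehydrogenase subunit, was higher by 1.22 ± 0.10, Idh3g and Idh3a, isocitrate dehydrogenase subunits, by 0.86 ± 0.14 and 0.57 ± 0.12, and the citrate synthase Cs by 0.75 ± 0.14 (SE). Rpia, ribose phosphate isomerase, was higher by 1.48 ± 0.12, Taldo1 by 0.80 ± 0.12 and Tkt by 0.76 ± 0.25 (SE). In the double mutant 11 of the 14 and 4 of the 5 were lower than in Lhr null, against 45.0% of all genes. The counts for both lists were the same without the doubted array. These medians stand beside 0.21 and -0.21 over all genes in the 2 comparisons, and none of these lists was tested as a set.

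**Figure D5:**
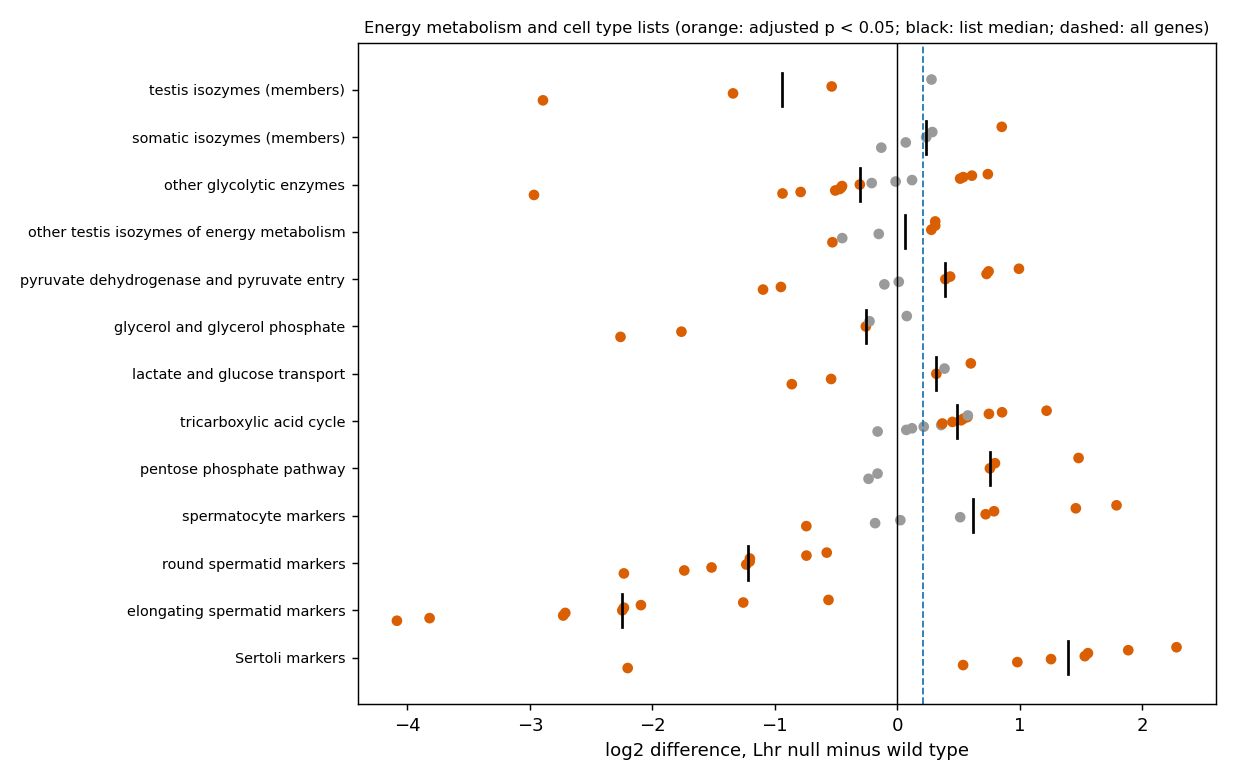
Log2 difference between Lhr null and wild type (x axis) of each tested gene in 13 lists (y axis), with called genes in orange, list medians as black bars and the median of all genes as a dashed line. The medians lie at -0.94 for the testis copies, 0.24 for the somatic copies and -2.25 for the elongating spermatid markers.

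For each member the 3 genes with the most similar pattern over the 18 arrays were found by the root mean square difference of log2 level after each gene was centred on its own mean. For Gapdhs they were Smcp (0.0987), Cby2 (0.105) and Trim17 (0.121). For Pgk2 they were Lrrc51 (0.0942), Sel1l2 (0.0961) and Adcy10 (0.108). For Gapdh they were Nptn (0.0852), Mcl1 (0.0944) and Ppm1b (0.0982). These distances were small beside the SD of the members over the arrays, which was 1.36 for Gapdhs, 0.61 for Pgk2 and 0.49 for Gapdh. For Gk2, with an SD of 0.42, the nearest were Hspa4 (0.166), 2300009A05Rik (0.176) and Hcfc2 (0.177). For Ldhc they were Spef1l (0.141), Myorg (0.145) and Tmem97 (0.146), against an SD of 0.23. For Ldha the nearest, Psmc3 (0.0747), Tcea2 (0.0760) and C330018D20Rik (0.0819), were as far as its own SD of 0.0746, so they carry no pattern. Pgk1 was nearest to Abhd14b (0.168), Fkbp5 (0.168) and Prnp (0.173), Ldhb to Sfxn3 (0.147), Yod1 (0.157) and Prkg1 (0.163), and Pdha1 to Irak1 (0.151), Eva1b (0.154) and B4galt1 (0.166).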

How the data were processed

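The deposited table, per the file headers, gives for each probe and array an unnormalized mean bead intensity, a detection p-value and a number of beads. Per the submitters' processing notes the authors used GenomeStudio 1.7.0, and any later step of theirs is unstated. A second deposited table of the authors' processed intensity values served as an alternative. Steps of 1 in 936 separate the values of the deposited detection p-value, and the median number of beads was 40 to 43; the number of arrays limits the precision.

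Intensities were corrected with normexp (background inferred from detection p-values, offset 16) in limma 3.58.1 and R 4.3.3, quantile normalized and taken to log2, the scale of all levels and differences. A probe had to reach a detection p under 0.01 on 4 or more arrays, and the brightest probe stood for a gene. Group means over all 18 arrays were fitted with lmFit and eBayes, and calls are at a Benjamini-Hochberg adjusted p under 0.05 over all genes (or all probes, for single probes). Folds are powers of these log2 differences, and the offset makes them too small for dim probes. A gene undetected on all arrays of a group has only a lower bound, taken against the lowest detected signal. Of all probes 34885 have 1 gene symbol, 18 several and 10378 none. The fit was also run on simulated data in which few genes differed and the spread was equal in all groups. That setting is unlike these data, so nothing is drawn from it here. Promoters and motifs came from the RefSeq table of GRCm38.p6.

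The members, lists, tests and alternatives were chosen with earlier results of these data known. The text names all members, Fshr, up to 4 called genes with the largest difference between Lhr null and wild type per pathway list, up to 2 per cell type list and 3 similar genes per member. Replicate numbers were not used to pair the arrays in the main fit. Of 25 same-numbered pairs 5 had correlated deviations over 0.1 (range -0.316 to 0.215). Pairs with different numbers were not set beside them, so whether the numbers mark a pairing or a batch was not tested. The planned ratios of Pdha2 to Pdha1 and of Gk2 to Gk were not run, since Pdha2 did not pass the filter and Gk has no named probe here.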

Additional observations from a re-analysis of the deposited data

Results flagged for a closer look

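One array was flagged by a rule for values far from the rest of their group. For Ldhc on ILMN_2930177, Fshr mutant replicate 3 read 14.41 while the other 3 arrays of that group read 14.70 to 14.74. It was the only array flagged among 48 sets of 1 probe and 1 group. By chance the rule flags about 1 set in 20, so this is no more than chance gives. The probe lies at the top of the intensity range, with 8 distinct values on 18 arrays after quantile normalization.

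For 3 genes of 9 the effect of the Fshr mutation differed by a tested interaction between testes with and without Lhr, against 60.1% of all genes. The interaction is thus not particular to these genes. It was 1.38 for Pgk2 (limma adjusted p = 8.41e-06) and 2.85 for Gapdhs (limma adjusted p = 8.87e-06). For Gapdh the interaction was -0.89 (limma adjusted p = 2.33e-04). For Pgk2, Gapdhs and Gapdh the Fshr mutant did not differ from wild type by the test, while all double mutant arrays lay on the wild type side of the Lhr null arrays.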

How the results depend on the processing

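Of the alternatives, the called differences of Gapdhs, Pgk2 and Gapdh kept direction and call in all 30 settings for Lhr null against wild type and for double mutant against Lhr null; leaving out 1 array at a time gave -3.20 to -2.73 and 2.63 to 3.09 for Gapdhs, -1.48 to -1.26 and 1.16 to 1.38 for Pgk2, and 0.77 to 0.95 and -1.15 to -1.01 for Gapdh. Scaling mattered for the brightest probes. Ldhc in the double mutant against Lhr null turned to -0.50 under cyclic loess, and Ldha in Lhr null against wild type to -0.43 under median scaling and -0.45 without normalization; the cause was not tested. Under cyclic loess 9 of 12 member probes were called for Lhr null against wild type, where 7307 of 10798 genes were called. The Ldhc to Ldha ratio then changed by 0.82 in that comparison and by -0.47 from Lhr null to double mutant. The Ldhc to Ldhb ratio then changed by 0.039 from Lhr null to double mutant. The Ldhc to Ldhb change from wild type to double mutant was 0.64 and lost its call under median scaling and without normalization, and the Pgk2 to Pgk1 change was 0.20 with the authors' processed values. Of the genes called between Lhr null and wild type 62.0% were higher, against 50.6% under cyclic loess; between double mutant and Lhr null 39.4% were higher, against 48.3% under cyclic loess and 27.9% without normalization. Leaving out 1 array at a time gave -1.39 to -1.07 for Pgk2 to Pgk1 and -4.15 to -3.59 for Gapdhs to Gapdh in Lhr null against wild type, 0.24 to 0.37 for Pgk2 to Pgk1 and 0.59 to 0.74 for Ldhc to Ldhb in double mutant against wild type, and 0.027 to 0.099 for Ldhc to Ldha in double mutant against Lhr null; fewer arrays allow only larger exact p-values, and adjusted p reached 0.0643. Over all genes, the counts of calls were 0 for Fshr mutant against wild type (0 to 3 without 1 array, 1 with median scaling, 2 without normalization, 3 with only the groups compared, 6 with array weights), 138 for double mutant against wild type (6 to 212 without 1 array, 844 with array weights) and 3 for double mutant against Fshr mutant (0 to 57 without 1 array, 1 under cyclic loess or with only the groups compared, 10 without normalization, 0 with no filter, 5 with the mean of probes, 79 with array weights). The interaction had 6488 calls, 4254 without normalization. For double mutant against wild type 0 to 1 member probe was called without 1 array, and 1 with array weights or only the groups compared; over genes, Gk2 was called in both and without normalization (-1.07). With the replicate number as a block, the count fell to 21 for double mutant against wild type and to 1 for double mutant against Fshr mutant, Gk2 in Lhr null against wild type was -0.47 (limma adjusted p = 0.0656), and no other call on a member changed. Gk2 lost its call also with no filter (adjusted p = 0.0645) and with only the groups compared (adjusted p = 0.0928, limma for both), and was larger under the other scalings, -0.74 under cyclic loess to -0.96 without normalization. Signal over background limits Pdha2, Ldhb and 2 Pgk1 probes, and the top of the range limits Ldhc.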
